A study of Mus musculus with 4 samples.

Results

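The integrin and laminin chain genes of mouse ATDC5 cells were compared before and after chondrogenic culture. The genes were taken by symbol: every integrin alpha chain except Itgam, the 8 numbered integrin beta chains, the laminin alpha, beta and gamma chains measured, the collagen receptors Ddr1 and Ddr2, and the secreted integrin-like protein Itgbl1. They came to 38 of the 19938 genes tested, with 25 integrin chains, 10 laminin chains, 2 discoidin domain receptors and Itgbl1. ATDC5 is a mouse chondroprogenitor line. All cells were grown in DMEM/F12 with 5% fetal bovine serum, L-glutamine, antibiotic-antimycotic and 12.5 μg/mL ascorbic acid. The day 0 group was this undifferentiated culture (2 arrays), and the day 15 group had insulin, transferrin and selenite added for 15 days (2 arrays). No group was held for 15 days without the supplement, so time in culture, the supplement and differentiation cannot be told apart. Nothing in the labels ties the samples to different cultures, so the p-values cover sample-to-sample spread alone, possibly of technical origin.

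Integrins are receptors of an alpha and a beta chain that cross the cell membrane and tie the matrix outside to the actin cytoskeleton inside. The alpha chain largely sets the ligand, and most alpha chains that bind matrix pair with the beta chain Itgb1. Cartilage cells are known for receptors of collagen, of fibronectin and of laminin, and Itga10 is known as the collagen-binding chain typical of chondrocytes. Laminins are cross-shaped trimers of an alpha, a beta and a gamma chain that build basement membranes and, in cartilage, part of the matrix close to the cell. Ddr1 and Ddr2 are receptor tyrosine kinases that bind collagen without integrins.

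The series as a whole concerns a modified cytosine that arises from methylated CpG sites, so promoters are shown for the 2 called integrin-related genes in the sequence table, Itga8 and Itgbl1, and for the collagen receptor chains with the largest differences in each direction, Itga10 and Itga11. Each is the 250 bases before the annotated start, 5′ to 3′, from RefSeq on GRCm38.p6, a build other than the mm9 of the submitters' processing notes, and capitals mark CpG. They lie at chr2:12301945-12302194 (minus strand) for Itga8, chr14:123659890-123660139 (plus) for Itgbl1, chr3:96645334-96645583 (plus) for Itga10 and chr9:62677605-62677854 (plus) for Itga11.
Itga8: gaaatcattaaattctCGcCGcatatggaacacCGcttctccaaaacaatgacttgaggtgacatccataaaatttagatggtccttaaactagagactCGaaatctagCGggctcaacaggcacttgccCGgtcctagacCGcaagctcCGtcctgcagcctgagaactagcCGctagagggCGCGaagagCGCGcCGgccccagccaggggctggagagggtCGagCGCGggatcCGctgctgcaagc
Itgbl1: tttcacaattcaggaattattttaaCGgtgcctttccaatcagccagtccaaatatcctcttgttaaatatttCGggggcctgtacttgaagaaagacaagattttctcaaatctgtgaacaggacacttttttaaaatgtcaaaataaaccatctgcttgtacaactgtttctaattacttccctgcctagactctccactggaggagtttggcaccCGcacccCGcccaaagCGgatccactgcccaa
Itga10: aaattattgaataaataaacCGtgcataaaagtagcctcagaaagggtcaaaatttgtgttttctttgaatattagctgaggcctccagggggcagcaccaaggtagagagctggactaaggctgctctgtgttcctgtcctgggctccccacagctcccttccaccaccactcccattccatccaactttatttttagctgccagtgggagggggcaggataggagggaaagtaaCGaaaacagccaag
Itga11: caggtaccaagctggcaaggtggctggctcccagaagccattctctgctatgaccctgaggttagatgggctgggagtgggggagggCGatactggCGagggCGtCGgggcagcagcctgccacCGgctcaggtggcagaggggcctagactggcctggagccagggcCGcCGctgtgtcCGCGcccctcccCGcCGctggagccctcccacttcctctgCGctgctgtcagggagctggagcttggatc
The Itga8 promoter held 18 CpG and the Itga11 promoter 12, and 21.7% and 33.5% of all 32851 promoters in the table held at least as many. The Itgbl1 promoter held 5 CpG and the Itga10 promoter 2, counts reached by 55.6% and 81.2% of all promoters. Promoters were matched for 25 of the 38 genes (31 promoters, since 4 genes had several), with a median of 9 CpG against 6 over all promoters. Of the 2 called genes shown, Itga8 was above that median of 6 and Itgbl1 just below it, and the arrays did not measure the modification itself.

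The values are log2 of a processed intensity plus 1, quantile normalized, so a difference of 1 is a doubling, and a level of 1 gene is not set against that of another because each probe set has its own brightness. Of 10 chondrocyte markers 7 rose (1.30% of all genes did), among them Hapln1, Acan and Col2a1, and the 8 endothelial and 8 epithelial markers stayed between 5.10 and 8.65 log2 on all arrays with no gene called by limma (1 and 0 had an unadjusted p below 0.05). Of 14 leukocyte and macrophage markers 11 were higher on both replicate 1 arrays, beside 6805 of all 19938 genes. Ptprc and Adgre1, dim on all arrays, were lower on both, and Coro1a was higher at day 0 only. The summed intensity of the 14 was 12406 and 12931 on the replicate 1 arrays of day 0 and day 15. On the replicate 2 arrays it was 2989 and 4796. Between the days none of the 14 was called by limma (1 higher, Lyz2, and none lower at an unadjusted p below 0.05), and Lyz2 and Cd68 were both 1.20 log2 higher at day 15. Of the integrin, laminin and receptor genes 7 of 38 were higher on both replicate 1 arrays, beside 6805 of all 19938 genes. None of the 7 was so by 1 log2 on both days, beside 68 of all genes. No detection call was used, and 18 of the 38 genes had both day means below the median level of all genes (8.72), where a value may lie at background. The day 0 means of Itgbl1, Itga8, Itga10, Itga9 and Itga7 were also below it, so their folds may be lower bounds.

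Of the 38 genes 3 rose between day 0 and day 15 and none fell. The called genes (7.89% of the 38; 1.72% of all genes were called in either direction) were Itgbl1, the integrin alpha chain Itga8 and the laminin alpha chain Lama4. The share of all genes called higher was 1.30% (260 of 19938), the share called lower was 0.411%, and a call means a Benjamini-Hochberg adjusted p below 0.05 in a limma fit over all genes. At an unadjusted p below 0.05, limma gave 10 of the 38 higher and 2 lower, beside 7.38% and 4.78% of all genes. Both day 15 arrays lay above both day 0 arrays for 13 of the 38 genes and below for 7, where 22.3% and 17.8% of all genes did so. A difference of at least 1 log2 was seen for 6 genes upward and 1 downward, against 2.79% and 1.17% of all genes. The median difference of the 38 was 0.06 log2, beside 0.02 for all genes, and the median size of a difference was 0.23 beside 0.16. Thus 31 of the 38 genes differed by less than 1 log2, as did 19148 of all 19938. The shares called higher and at least 1 log2 higher (15.8%) were above those of all genes. The 38 genes were chosen with earlier results of these data known, and the set was not tested.

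**Figure D1:**
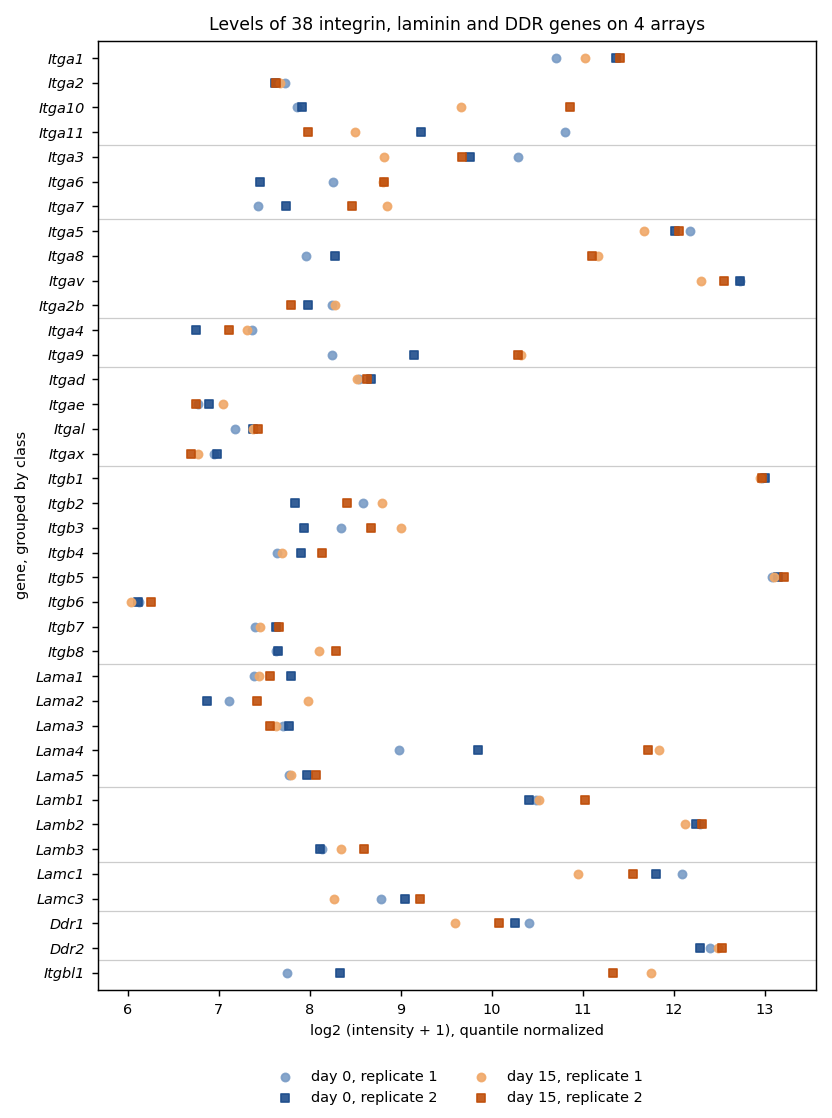
Each row is 1 of the 38 genes, and the horizontal axis is its log2 intensity plus 1 after quantile normalization on each of the 4 arrays (circles replicate 1, squares replicate 2, blue day 0, orange day 15). Horizontal lines separate the classes; Itga8, Itgbl1 and Lama4 have both orange points far to the right of both blue points, while the 4 points of Itgb1 lie between 12.95 and 13.00.

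Itga8 is the alpha chain of an integrin that binds fibronectin and, with higher affinity, the matrix protein nephronectin through the RGD tripeptide. Itga8 (probe set 10480090) was at 7.96 and 8.27 log2 at day 0 and at 11.16 and 11.10 at day 15. The days did not overlap, and the gap between them was many times the spread within either. It rose by 3.01 ± 0.19 log2 (SE, n = 2 arrays per day), which is 8.08-fold from day 0 values that may lie at background (95% interval 2.56 to 3.47 log2, limma adjusted p = 0.00303). The difference was 3.21 between the replicate 1 arrays and 2.82 between the replicate 2 arrays, on which most of the leukocyte and macrophage markers were lower. Npnt, the gene of nephronectin, was at 8.86 and 10.22 log2 at day 0 and at 12.17 and 12.28 at day 15. The Npnt difference, 2.69 ± 0.43 log2 (SE), missed the threshold (limma adjusted p = 0.0516), and its day 0 arrays were far apart. Itgb1, the beta chain with which Itga8 pairs, differed by −0.02 log2 (95% interval −0.42 to 0.37).

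Itgbl1 is a secreted protein with repeats like those of integrin beta chains but without the membrane anchor, and it had the largest difference of the 38 genes. Itgbl1 (probe set 10417212) was at 7.75 and 8.33 log2 at day 0 and at 11.74 and 11.33 at day 15. Both day 15 arrays were high and both day 0 arrays were below the median level of all genes. It rose by 3.50 ± 0.26 log2 (SE, n = 2), or 11.3-fold, again from day 0 values that may lie at background (95% interval 2.85 to 4.15, limma adjusted p = 0.00518). It ranked 36 by size among the 260 genes that rose, with Itga8 at 62 and Lama4 at 110. The difference was 3.99 log2 between the replicate 1 arrays and 3.0 between the replicate 2 arrays.

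Of the 10 laminin chains Lama4 was the 1 that was called, where 1.72% of all genes were. Lama4 is the alpha chain of laminins found in mesenchyme, muscle and vessel walls. Lama4 (probe set 10362538) was at 8.98 and 9.84 log2 at day 0 and at 11.84 and 11.71 at day 15. The day 0 arrays differed by nearly as much as a doubling, and both lay well below the day 15 arrays. It rose by 2.37 ± 0.30 log2 (SE, n = 2), or 5.15-fold (95% interval 1.62 to 3.11, limma adjusted p = 0.0278). The difference was 2.86 log2 between the replicate 1 arrays and 1.87 between the replicate 2 arrays. The call was lost without day 15 replicate 1 (limma adjusted p = 0.110) and without day 15 replicate 2 (0.0828), fits in which the lone array is assumed to vary like the day 0 pair, while the difference stayed at 2.30 and 2.45 log2.

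The other laminin alpha chains were dim on all arrays. Lama2, the chain of muscle laminin, was at 7.11 and 6.87 log2 at day 0 and at 7.98 and 7.42 at day 15, a difference of 0.71 ± 0.24 (SE, limma adjusted p = 0.305). Lama1, Lama3 and Lama5, chains of embryonic and epithelial basement membranes, had differences from −0.14 to 0.06 log2, with levels between 7.39 and 8.07 on the 4 arrays. Of the 5 laminin alpha chains 1 rose and none fell, beside 1.30% and 0.411% of all genes.

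The beta and gamma chains that complete these trimers were not called (0 of 5 with limma, beside 1.72% of all genes). At an unadjusted p below 0.05, limma gave none higher and Lamc1 lower, beside 7.38% and 4.78% of all genes. Lamb1 was at 10.48 and 10.41 log2 at day 0 and at 10.51 and 11.03 at day 15, and its difference was 0.33 ± 0.22 (SE, limma adjusted p = 0.703). Lamb2 was bright on every array, between 12.13 and 12.31, with a difference of −0.05 log2 (95% interval −0.46 to 0.37). Lamb3, a chain of epithelial laminin, differed by 0.35 ± 0.18 log2 (SE, limma adjusted p = 0.543). Lamc1, the gamma chain of most laminins, was at 12.09 and 11.80 log2 at day 0 and at 10.95 and 11.55 at day 15. Its arrays did not overlap, day 15 replicate 1 was the lowest, and the difference of −0.69 ± 0.25 log2 (SE) was not called (limma adjusted p = 0.353). Lamc3 was at 8.78 and 9.05 at day 0 and at 8.26 and 9.21 at day 15, so its days overlapped. The median of the 10 laminin chains was 0.01 log2. A rise of an alpha chain was therefore seen without a called change of a beta or gamma chain, and whether Lama4 differed from them in its change was not tested.

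**Figure D2:**
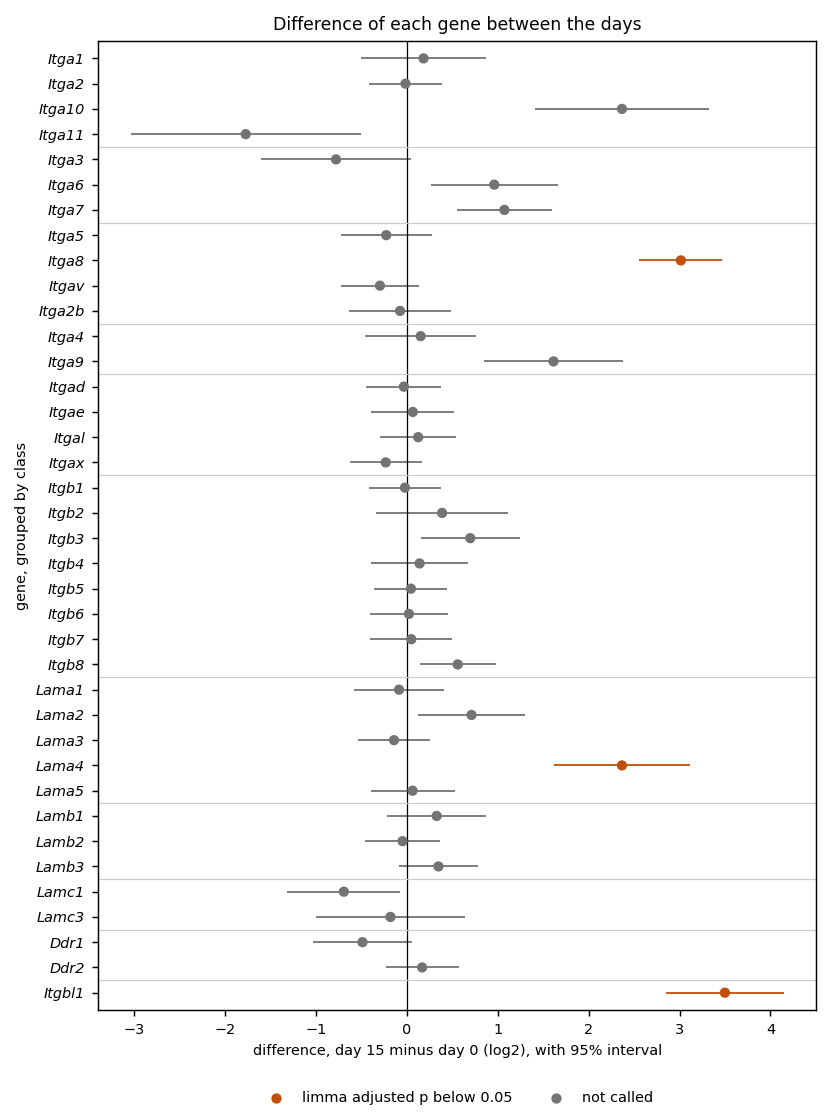
Each row is 1 gene, the point is the difference of day 15 minus day 0 in log2 and the bar its 95% interval from limma; orange marks the 3 genes with an adjusted p below 0.05 over all genes, and horizontal lines separate the classes. Itga10, Itga9 and Itga7 are among the genes with intervals above 0 but no call, Itga11 and Lamc1 have intervals below 0 but no call, and the intervals of Itgb1 and Itgb5 lie within 0.45 of 0.

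The 4 collagen-binding alpha chains did not move together. Itga10, a receptor chain of type II collagen, was at 7.86 and 7.92 log2 at day 0 and at 9.66 and 10.86 at day 15. The day 0 arrays were close to each other, the day 15 arrays were more than a doubling apart, and the days did not overlap. The difference of 2.37 ± 0.39 log2 (SE, n = 2), 5.16-fold, missed the threshold (limma adjusted p = 0.0550, 95% interval 1.41 to 3.32). The difference was 2.94 log2 without day 15 replicate 1 and 1.79 without day 15 replicate 2. In these fits the gene's own spread came from the close day 0 pair alone. With all 4 arrays it was called by limma after median centring (adjusted p = 0.0328) and with trend and robust hyperparameters (0.0266). It was not called with the deposited scaling (0.0608) or a pseudocount of 16 (0.0551). After a filter at the median level it was called (0.0277), but Itga10 passed that filter through its day 15 mean alone. That call is therefore no separate support. Without day 0 replicate 1 or 2 the difference of Itga10 was 2.32 or 2.42 log2. Col2a1, its collagen ligand in cartilage, rose by 2.17 ± 0.33 log2 (SE, limma adjusted p = 0.0441).

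Itga11, a receptor chain of fibrillar collagen in fibroblasts and other mesenchymal cells, was at 10.80 and 9.22 log2 at day 0 and at 8.49 and 7.98 at day 15. Both day 15 arrays were lower than both day 0 arrays, but the day 0 arrays were more than a doubling apart. The difference of −1.77 ± 0.51 log2 (SE, n = 2) was the lowest of the 38 without being called (limma adjusted p = 0.232, 95% interval −3.04 to −0.51). Without day 0 replicate 2 it was −2.58 log2 and without day 0 replicate 1 it was −0.98, fits from which the wide day 0 spread drops out. Without day 15 replicate 1 or 2 it was −2.01 or −1.55 log2. Itga1, which binds collagen types of basement membranes as well as fibrils, was at 10.70 and 11.37 log2 at day 0 and at 11.02 and 11.41 at day 15, so the days overlapped. Itga2, a collagen receptor chain of platelets and epithelia, stayed between 7.61 and 7.72 on all arrays. Itga1 and Itga2 are neighbours in the gene table, with no protein-coding gene between them, and their differences were 0.18 and −0.02 log2. Thus none of the 4 was called by limma, where 1.72% of all genes were. At an unadjusted p below 0.05, limma gave 1 higher and 1 lower, beside 7.38% and 4.78% of all genes.

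The discoidin domain receptors showed small differences. Ddr2, which binds fibrillar collagen and type X collagen, was at 12.40 and 12.28 log2 at day 0 and at 12.49 and 12.52 at day 15, a difference of 0.17 log2 (95% interval −0.23 to 0.57, limma adjusted p = 0.837). Ddr1, the receptor more typical of epithelia, was at 10.40 and 10.25 at day 0 and at 9.59 and 10.08 at day 15. Its arrays did not overlap and its difference of −0.49 ± 0.22 log2 (SE) was not called (limma adjusted p = 0.470). Neither receptor had an unadjusted limma p below 0.05, beside 7.38% of all genes higher and 4.78% lower.

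Itga8 stood among the alpha chains classed as fibronectin-binding through RGD, a class without Itga4, with 3 others that were not called. Itga5, the main fibronectin receptor chain, was at 12.18 and 12.01 log2 at day 0 and at 11.67 and 12.06 at day 15. The days overlapped, and the difference was −0.23 log2 (95% interval −0.73 to 0.27). Itgav, which binds vitronectin, fibronectin and latent TGF-beta, was at 12.73 and 12.72 at day 0 and at 12.30 and 12.56 at day 15, a difference of −0.30 ± 0.18 log2 (SE, limma adjusted p = 0.636). Itga2b, the fibrinogen receptor chain of platelets, lay between 7.80 and 8.28 on all arrays. Fn1, the gene of fibronectin itself, was between 13.64 and 13.87 log2 on the 4 arrays with a difference of 0.09.

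The 3 laminin-binding alpha chains differed in both directions without a call. Itga7, known from muscle, was at 7.43 and 7.73 log2 at day 0 and at 8.84 and 8.47 at day 15. Its days did not overlap, and its difference of 1.07 ± 0.21 log2 (SE, n = 2), 2.10-fold, was not called (limma adjusted p = 0.0988, 95% interval 0.55 to 1.60). Itga6, which also pairs with Itgb4 in epithelia, was at 8.25 and 7.45 at day 0 and at 8.81 and 8.82 at day 15. The difference of 0.96 ± 0.28 log2 (SE) was not called (limma adjusted p = 0.240). Itga3, a receptor chain of epithelial laminins, was at 10.28 and 9.77 at day 0 and at 8.82 and 9.67 at day 15. Day 15 replicate 2 came within 0.10 log2 of day 0 replicate 2, and the difference was −0.78 ± 0.33 (SE, limma adjusted p = 0.444). At an unadjusted p below 0.05, limma gave 2 of these 3 higher and none lower, beside 7.38% and 4.78% of all genes.

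Itga9, a chain that binds tenascin, osteopontin and the matrix protein Svep1, was at 8.24 and 9.14 log2 at day 0 and at 10.32 and 10.29 at day 15. The day 15 arrays were nearly equal and both were above the day 0 arrays, which were far apart. The difference of 1.61 ± 0.31 log2 (SE, n = 2), 3.06-fold, was not called (limma adjusted p = 0.0887, 95% interval 0.85 to 2.37), and it was not called under 8 of 11 alternatives. Without day 0 replicate 2 the difference was 2.08 log2, and without day 0 replicate 1 it was 1.14. Without day 15 replicate 1 or 2 it was 1.58 or 1.65 log2. In each of these fits the gene's own spread came from the pair of the other day alone. After the filter at the median level it was called (limma adjusted p = 0.0484), but Itga9 passed that filter through its day 15 mean alone. That call is therefore no separate support. Svep1 was at 11.79 and 11.58 log2 at day 0 and at 10.44 and 10.48 at day 15, and it fell by 1.22 on the log2 scale (limma adjusted p = 0.0340). Tnc, the gene of tenascin-C, differed by 0.06 log2. Itga4, a fibronectin and Vcam1 receptor chain of blood cells and some mesenchyme, lay between 6.75 and 7.37 on all arrays, with a difference of 0.15 log2.

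The leukocyte chains were dim. Itgad, Itgae, Itgal and Itgax, which pair with Itgb2 or Itgb7 on white blood cells, had levels between 6.69 and 8.68 log2 and differences from −0.23 to 0.12. None of the 4 was called by limma, where 1.72% of all genes were. None had an unadjusted limma p below 0.05, beside 7.38% of all genes higher and 4.78% lower. The 2 probe sets of Itgad gave −0.03 and 0.12. Itgax and Itgad are neighbours in the gene table. Itgb2, their main beta chain, was at 8.59 and 7.84 log2 at day 0 and at 8.79 and 8.41 at day 15, higher on the replicate 1 array of each day. Itgam, the macrophage partner of Itgb2 and not among the 38 genes, was at 8.76 and 6.23 at day 0 and at 8.41 and 6.14 at day 15. Itgam thus followed the replicate number as Csf1r did (10.31 and 6.71, then 10.19 and 6.49), while the difference of Itgb2 between the days was 0.39 ± 0.29 log2 (SE, limma adjusted p = 0.755).

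The beta chains differed by less than 1 log2 between the days. Of the 8 differences, from −0.02 to 0.70 log2, 7 were above 0, beside 10602 of all 19938 genes. None of 8 was called by limma (2 higher and none lower at an unadjusted p below 0.05, beside 7.38% and 4.78% of all genes). Every gene called on these arrays differed by at least 1 log2, so the lack of a call says little about smaller differences. Itgb1, the common partner, was at 12.96 and 13.00 log2 at day 0 and at 12.95 and 12.97 at day 15. Itgb5, a partner of Itgav in vitronectin receptors, was at 13.08 and 13.15 at day 0 and at 13.10 and 13.21 at day 15. The 95% intervals of both, −0.42 to 0.37 and −0.36 to 0.45, leave out a doubling in either direction. Itgb3, the partner of Itgav in the receptor of osteopontin and bone sialoprotein, was at 8.34 and 7.94 at day 0 and at 9.0 and 8.67 at day 15. Its days did not overlap, and its difference of 0.70 ± 0.22 log2 (SE) was not called (limma adjusted p = 0.274). Ibsp, the gene of bone sialoprotein, rose by 5.36 log2 in the same cells (limma adjusted p = 0.000606). Itgb8, a partner of Itgav in the activation of TGF-beta, was at 7.63 and 7.65 at day 0 and at 8.10 and 8.29 at day 15. The arrays were tight within each day, and the difference was 0.56 ± 0.17 log2 (SE, limma adjusted p = 0.251). Itgb4, Itgb6 and Itgb7, chains of epithelia and lymphocytes, had differences from 0.02 to 0.14 log2.

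By ligand, the median was 0.08 log2 for the 4 collagen-binding chains and −0.15 for the 4 chains classed as fibronectin-binding through RGD. For the 3 laminin-binding chains it was 0.96, where the median of all genes was 0.02. Itga4 (0.15 log2), also a fibronectin receptor chain, was not in the RGD class. Each class held a chain that was at least 1 log2 higher at day 15, namely Itga10, Itga8 and Itga7. The other chains had differences of 0.18 log2 or lower, apart from Itga6 at 0.96. The spread within a class, from −1.77 to 2.37 log2 among collagen-binding chains and from −0.30 to 3.01 among fibronectin-binding chains, was wider than the distance between the class medians, and no test between classes was made. These medians rest on few genes: without day 0 replicate 2 they were 0.22, −0.26 and 0.56 log2. Among the classes by subunit, 4 of the 17 integrin alpha chains were at least 1 log2 higher and 1 lower, beside 2.79% and 1.17% of all genes. No beta chain was that far apart. Below the median level were 5 of the 8 beta chains and 8 of the 17 alpha chains. A difference between the subunits was not tested.

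**Figure D3:**
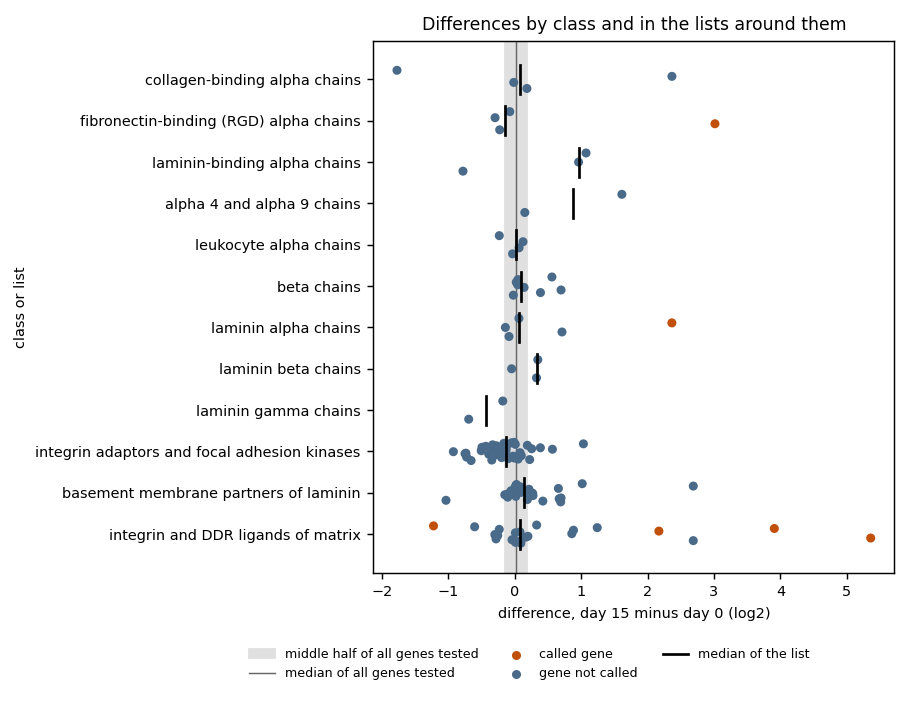
Each point is 1 gene placed by its difference of day 15 minus day 0 in log2 (orange called, blue not called), the black bar is the median of its class or list, and the grey band holds the middle 50% of all 19938 genes, from −0.14 to 0.19. The points of the collagen-binding and fibronectin-binding (RGD) chains spread far outside the band in spite of class medians close to it. Most focal adhesion adaptors lie inside the band or to its left.

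No measured gene of an integrin adaptor or focal adhesion kinase was called. Of 38 measured adaptors and focal adhesion kinases none passed with limma over all genes (2 higher and 6 lower at an unadjusted p below 0.05, beside 7.38% and 4.78% of all genes), and their median difference was −0.14 log2 beside 0.02 for all genes. Both day 15 arrays lay below both day 0 arrays for 15 of them and above for 3, against 17.8% and 22.3% of all genes. Kank1, which links talin to the cortical microtubule complex, had the largest difference, 1.03 ± 0.26 log2 (SE, limma adjusted p = 0.181). Src, the kinase that acts with focal adhesion kinase, was at 10.93 and 10.97 log2 at day 0 and at 9.86 and 10.19 at day 15, a difference of −0.93 ± 0.19 (SE, limma adjusted p = 0.102). Day 15 replicate 1 was the lowest of the 4 arrays for 22 of the 38 adaptors, among them Tln1, which activates integrins (12.33 and 12.25 at day 0, 11.25 and 12.01 at day 15). For all genes that array was the lowest in 4697 of 19938. Without it, a setting chosen after seeing the data, the median difference of the adaptors was −0.12 log2 and 26 of 38 were below 0, beside 28 of 38 with all arrays. Ptk2 and Nedd9 were not analysed here.

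The basement membrane partners of laminin were not called either. None of 24 passed with limma over all genes (6 higher and none lower at an unadjusted p below 0.05, beside 7.38% and 4.78% of all genes), with a median difference of 0.13 log2, and 11 had both day 15 arrays above both day 0 arrays and 4 below, beside 22.3% and 17.8% of all genes. Npnt had the largest difference of this list. Hspg2, the gene of perlecan, which fills both basement membranes and the matrix around chondrocytes, was at 12.33 and 12.17 log2 at day 0 and at 10.40 and 12.03 at day 15. Day 15 replicate 1 was far below the other 3 arrays, and the difference was −1.04 ± 0.51 log2 (SE, limma adjusted p = 0.527). Nid1, which joins laminin to collagen, was at 6.91 and 7.10 at day 0 and at 7.75 and 7.64 at day 15, a difference of 0.69 ± 0.17 log2 (SE, limma adjusted p = 0.170).

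Of 22 measured matrix ligands of integrins and discoidin domain receptors 3 rose and 1 fell, against 1.30% and 0.411% of all genes, and this list holds cartilage genes already known to change in these data. The 3 were Ibsp, Col10a1 (3.91 ± 0.25 log2, SE, limma adjusted p = 0.00326), the type X collagen of hypertrophic cartilage, and Col2a1. Svep1 was the 1 that fell. The median difference of the list was 0.08 log2, and Spp1 was not analysed here.

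**Figure D4:**
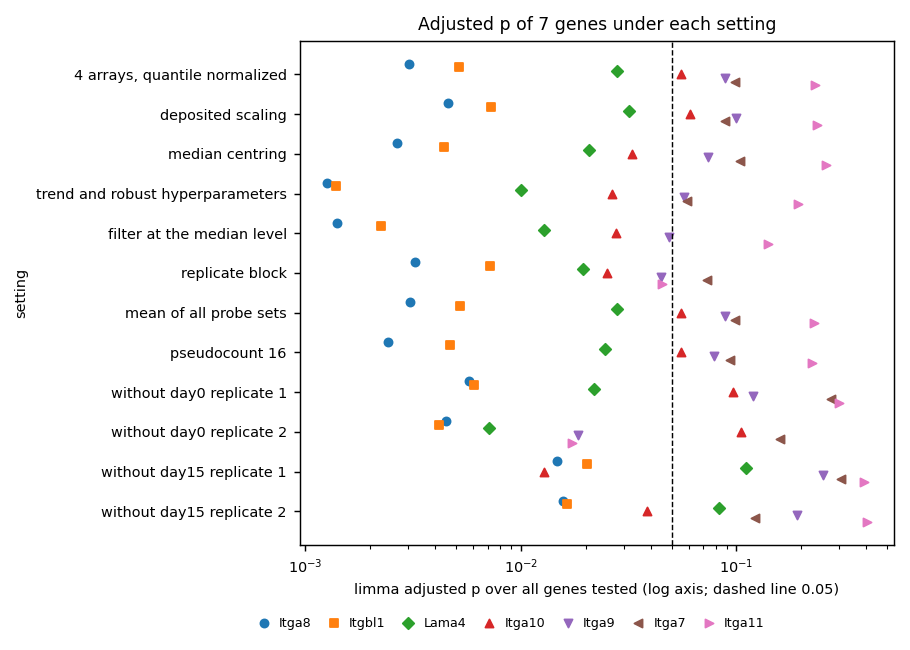
Each symbol is the limma adjusted p (horizontal log axis) of 1 of 7 genes under 1 setting (vertical axis), with a dashed line at 0.05. In a fit without 1 array, the gene's own spread comes from the pair of the other day alone. Itga8 and Itgbl1 stay left of the line under every setting shown, Lama4 crosses it when either day 15 array is left out, and Itga10, Itga9 and Itga11 lie on either side of it depending on the setting.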

How the data were processed

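Total RNA of 4 ATDC5 samples was labelled with biotin and hybridised to 1-colour whole-transcript arrays, per the labels' protocols. The authors deposited 1 processed intensity per probe set and sample, linear judged from the values (0.72 to 23103), and for its background correction, summarization and scaling the method is "not given in the sources used here". The build was mm9, per the submitters' processing notes. The platform annotation gave 21789 of 35512 probe sets 1 symbol, 1621 several and 12102 none; those with several or none were left out. The identifiers of 21698 were found in the RefSeq gene table (GRCm38.p6). The brightest probe set of a gene was used (999 genes had several, of the 38 genes Itgad alone).

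Values were turned to log2 after adding 1 and, since array medians differed by 0.20 log2 (tolerance 0.1), quantile normalized over all probe sets. The added 1 and background light shrink the differences of dim genes. Arrays of a day correlated across genes at 0.984 and 0.983. The number of arrays limits the precision. Limma 3.58.1 (R 4.3.3; lmFit and eBayes, group the only term, 2 residual degrees of freedom) gave differences, moderated SE, 95% intervals and p-values adjusted by Benjamini-Hochberg over all 19938 genes, and was tested on simulated data. Lists got counts and medians only.

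The 38 genes and all lists were chosen with earlier results of these data known. By rule, values are given for called genes, genes at least 1 log2 apart, those nearest the threshold, well-known chains, and of each list up to 4 called or the 2 most different genes; others, such as Itgb8, Tln1, Nid1, Tnc, Csf1r and Itgam, were named after their values were seen. Alternatives were the deposited scaling, median centring, trend and robust hyperparameters, a filter keeping genes whose higher day mean reached the median level, a replicate block, the mean of probe sets, a pseudocount of 16, a 2-fold minimum and leaving out each array. Plots were made in matplotlib 3.10.9 (Python 3.11.15).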

Additional observations from a re-analysis of the deposited data

How the results depend on the processing

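Itga8 and Itgbl1 were called under all 11 alternatives, over which the limma adjusted p of Itga8 ran from 0.00125 to 0.0157 and that of Itgbl1 from 0.00139 to 0.0203. Lama4 was called under 9 of them. The mean of probe sets cannot change a gene with 1 probe set, so for the genes named in this section it is no separate check. Itga10, Itga9, Itga11 and the number of calls moved as follows. The number of the 38 genes called higher (3) was 5 after the filter at the median level, which tests 10358 genes, and the number called lower stayed at 0. Itga8, Itgbl1, Itga10 and Itga9 passed that filter through their day 15 means alone, so their calls after it are no separate support. Over all genes, 260 were called higher and 82 lower, and 145 to 219 and 29 to 63 when 1 array was left out (29 lower without either day 15 array, 46 without day 0 replicate 2, 145 and 167 higher without day 15 replicate 1 and 2). With all arrays, a 2-fold minimum left the 260 and 82 calls, and those among the 38 genes, unchanged. Every called gene already differed by at least 2-fold, so this minimum could remove no call and is no separate check. The median of all 38 genes was 0.0020 to 0.15 log2 when 1 array was left out, that of the collagen-binding chains −0.056 to 0.22, of the fibronectin-binding chains −0.26 to −0.046 and of the laminin-binding chains 0.56 to 0.95; the last was 0.090 after the filter, which left out Itga7. With the replicate number as a block, 440 genes were called higher and 188 lower, and of the 38 genes 5 were higher (Itga10 and Itga9 besides the 3, limma adjusted p = 0.0251 and 0.0449) and 1 lower (Itga11, 0.0452). The labels do not say that a number marks a shared culture, and the deviations of the replicate 1 arrays of the days from their group means correlated at 0.403 across genes, which are not independent replicates. The differences within a replicate number given for the called genes were chosen after the macrophage markers were seen. With 2 arrays per day an exact permutation test of 1 gene cannot go below p = 0.333, and dim genes cannot be told from background here.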
